A study of Homo sapiens with 18 samples.

Results

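The genes described here are those of the ISG15 conjugation pathway, chosen by symbol from the gene count table of a study of ELMO1 knockdown in EA.hy926 cells: ISG15, UBA7, UBE2L6, HERC5, HERC6 and USP18, 6 of the 62754 genes listed. ISG15 is a ubiquitin-like protein that type I interferons induce. It is joined to other proteins by an enzyme cascade like that of ubiquitin, with UBA7 as the activating enzyme (E1), UBE2L6 as the conjugating enzyme (E2) and HERC5 as the main ligase (E3) in human cells, and it is taken off again by the protease USP18. HERC6 is the neighbouring relative of HERC5 and acts as the main ISG15 ligase in the mouse. USP18 has another role as a brake on interferon signalling, since it binds the receptor chain IFNAR2.

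EA.hy926 is an endothelial line that was made by fusing human umbilical vein endothelial cells with the lung epithelial line A549, so it is a hybrid and not a primary cell. Cells received the transfection reagent without siRNA (Mock), a non-targeting siRNA (siNT) or a pool of siRNAs against ELMO1 (siELMO1). The non-targeting siRNA and the pool as a whole were each given at 10 nM. ELMO1 is a regulator of cell engulfment and motility. RNA was taken 48 h after transfection and before stimulation (0 h), or after a further 24 h with 1 μg/ml poly(I:C), a synthetic double-stranded RNA that is sensed by TLR3 (24 h). No library was kept for those 24 h without poly(I:C), so its effect and that of the added time cannot be told apart. The 18 libraries comprise 3 for each of 6 conditions, which the study describes as biological replicates. Levels are given as CPM, the estimated count as a share of 1 M counts, with TMM factors applied to the library size.

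The libraries held 40.4 to 73.9 M counts each, so that 3 counts stood for 0.0406 to 0.0743 CPM. Every library held more counts than the largest number of paired-end reads that the study gives for a sample. A count therefore does not stand for a sequenced read pair. ELMO1 was lowest in the siELMO1 libraries, at 0.299 to 0.419 CPM against 2.66 to 3.32 in siNT at 0 h and 2.99 to 3.04 in Mock, and at 0.155 to 0.360 CPM against 2.98 to 3.59 in siNT and 1.52 to 2.98 in Mock at 24 h. Of 12 endothelial markers 11 were measured above the filter on low counts, and CLDN5 reached at most 14 counts. Among 8 epithelial markers, KRT7, KRT8 and KRT18 were abundant, whereas CDH1 and SFTPC were at 0 in every library. The leukocyte marker CD3E was at 0, and the summed level of the 6 leukocyte markers was 1.62 to 7.70 CPM. The first siELMO1 library at 0 h stood apart from the other two: the chi-square per degree of freedom between its counts and theirs was 60.4 and 67.1, against 9.41 to 25.4 for all other pairs of replicates, and mitochondrially encoded genes took 1.86% of its counts against 4.03% and 3.95%. Against all other conditions, however, replicates 2 and 3 were the ones outside the range, since the mitochondrial share elsewhere was 1.31% to 2.42%. Their totals, 40.4 and 51.0 M counts, were also the lowest of the 18 libraries. Which of the 3 was atypical was therefore not settled. Below, the library that stood apart means replicate 1. Calls that change without it are named beside the results. Such fits rest on replicates 2 and 3 for siELMO1 at 0 h.

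The genes lie on 5 chromosomes (GRCh38, Gencode v44). ISG15 (ENSG00000187608.10) spans chr1:1001138-1014540 on the plus strand, and UBA7 (ENSG00000182179.13) spans chr3:49805209-49813953 on the minus strand. UBE2L6 (ENSG00000156587.16) spans chr11:57551656-57568284 on the minus strand, and USP18 (ENSG00000184979.11) spans chr22:18150118-18177397 on the plus strand. HERC6 (ENSG00000138642.16), at chr4:88378739-88443097, and HERC5 (ENSG00000138646.9), at chr4:88457119-88506163, stand in line on the plus strand with 14021 bases between them. ISG15 overlaps 2 genes on the other strand, the lncRNA ENSG00000224969 by 1197 bases and the pseudogene ENSG00000231702 by 154 bases. The kit marked strand, but whether the counting used it is not given in the sources used here, so reads of these overlaps may not be told apart.

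Type I interferon acts on these genes through ISGF3, a complex of transcription factors that binds the interferon-stimulated response element. RefSeq promoter windows (GRCh38.p14, 250 bases before to 50 after a transcript start) were at hand for 4 of the 6 genes, ISG15, UBE2L6, HERC5 and HERC6, and not for UBA7 and USP18. The letters GAAANNGAAA were searched on both strands, and 3.57% of all 35116 windows held them. ISG15 and HERC5 were the 2 of these 4 with a match, and their windows are shown with the matched bases in capitals. ISG15 (chr1:1013247-1013546, plus strand) had 2 overlapping matches on the coding strand, and HERC5 (chr4:88456869-88457168, plus strand) had 3 on the opposite strand, of which 2 overlap.
ISG15: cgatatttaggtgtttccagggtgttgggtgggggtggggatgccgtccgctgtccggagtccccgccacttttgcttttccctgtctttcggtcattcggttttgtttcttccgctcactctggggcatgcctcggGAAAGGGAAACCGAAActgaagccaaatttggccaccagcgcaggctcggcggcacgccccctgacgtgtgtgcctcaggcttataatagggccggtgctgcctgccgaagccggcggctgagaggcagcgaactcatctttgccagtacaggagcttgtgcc
HERC5: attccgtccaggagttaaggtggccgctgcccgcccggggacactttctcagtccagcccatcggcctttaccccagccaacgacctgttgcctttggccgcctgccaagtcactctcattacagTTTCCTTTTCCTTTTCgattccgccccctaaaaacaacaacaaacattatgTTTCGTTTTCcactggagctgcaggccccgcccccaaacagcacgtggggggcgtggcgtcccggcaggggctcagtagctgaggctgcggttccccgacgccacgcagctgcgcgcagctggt
In the ISG15 window the matches covered bases 113 to 98 before the start. In HERC5 they covered bases 125 to 110 and 74 to 65 before it. No window of UBE2L6 or HERC6 held these letters. The letters of a gamma-activated site, TTCNNNGAA, were in 7.66% of all windows and in none of these. A match is a description of the sequence, and binding was not measured. Whether a match goes with the size of the rise was not tested.

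All 6 genes were higher at 24 h with poly(I:C) than at 0 h in all 3 arms. Over all 15167 genes tested, 30.7% were called higher at 24 h in Mock, 28.6% in siNT and 28.0% in siELMO1, and 29.6%, 25.2% and 26.9% were called lower (edgeR's quasi-likelihood test, Benjamini-Hochberg adjusted p under 0.05, as for every call below). ISG15 and HERC5 rose far more than the other four. In all comparisons of 24 h with 0 h the 6 genes had edgeR adjusted p of 8.2e-11 or less. The epithelial markers fell over the same time: their summed level went from 1519 to 1541 CPM at 0 h to 844 to 863 CPM at 24 h in Mock. Of the 4 tested, 4 fell in Mock, 3 in siNT and 4 in siELMO1. The summed level of the 12 endothelial markers also fell in Mock, from 2197 to 2341 CPM at 0 h to 1613 to 2042 CPM at 24 h. Of the 11 tested, 6 fell and 3 rose in Mock. In siNT 2 fell and 4 rose, and in siELMO1 2 fell and 3 rose. The part of these markers in the responses was not tested.

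**Figure D1:**
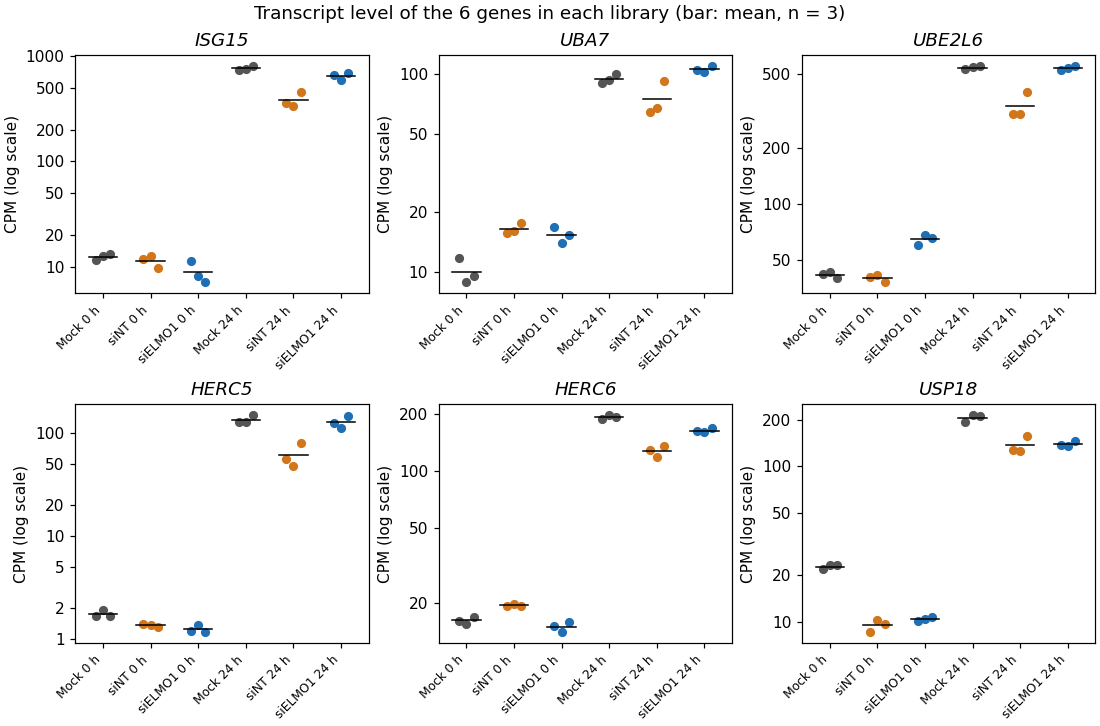
Level of each of the 6 genes in CPM (log axis) in the 18 libraries. Points are libraries, coloured by arm (grey Mock, orange siNT, blue siELMO1), and bars are means of 3. In every panel the 24 h means lie above the 0 h means, and siNT has the lowest mean at 24 h.

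The modifier itself was far lower before stimulation than after it. ISG15 measured 11.6, 12.6 and 13.3 CPM in the Mock libraries at 0 h, 11.9, 12.6 and 9.78 in siNT, and 11.3, 8.24 and 7.13 in siELMO1. At 24 h it measured 738, 743 and 804 CPM in Mock, 356, 332 and 456 in siNT, and 664, 591 and 683 in siELMO1. The 3 arms do not overlap at 24 h, with Mock highest and siNT lowest. The rise was 60.8-fold in Mock (log2 fold change 5.93, SE 0.16), 33.4-fold in siNT (5.06, SE 0.15) and 71.7-fold in siELMO1 (6.16, SE 0.16).

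The activating and conjugating enzymes rose less. UBA7, which activates ISG15, measured 11.7, 8.84 and 9.49 CPM in Mock at 0 h, 15.8, 16.1 and 17.6 in siNT and 16.9, 14.0 and 15.4 in siELMO1. At 24 h the UBA7 values were 90.8, 93.6 and 101 CPM in Mock, 64.6, 67.4 and 92.8 in siNT, and 105, 103 and 111 in siELMO1. The third siNT library lay within the range of Mock, and the others below it. This library was also the highest of the siNT libraries at 24 h in each of the other genes. UBA7 rose 9.51-fold in Mock (log2 3.25, SE 0.13), 4.54-fold in siNT (2.18, SE 0.12) and 6.84-fold in siELMO1 (2.77, SE 0.12).

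UBE2L6, the E2 that passes ISG15 to the ligase, measured 42.1, 42.9 and 40.1 CPM in Mock at 0 h, 40.3, 41.2 and 37.8 in siNT and 60.4, 67.8 and 65.6 in siELMO1. The siELMO1 libraries were already apart from the other arms before stimulation. At 24 h its values were 532, 545 and 557 CPM in Mock, 306, 305 and 400 in siNT, and 526, 541 and 554 in siELMO1, where Mock and siELMO1 overlap and siNT lies below both. The rise was 13.1-fold in Mock (log2 3.71, SE 0.09), 8.47-fold in siNT (3.08, SE 0.09) and 8.37-fold in siELMO1 (3.07, SE 0.09).

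Of the ligases, HERC5 had the lowest level of the 6 genes before stimulation. It measured 1.67, 1.93 and 1.69 CPM in Mock at 0 h, 1.40, 1.36 and 1.32 in siNT and 1.21, 1.36 and 1.18 in siELMO1. At 24 h it reached 128, 128 and 151 CPM in Mock, 56.6, 48.5 and 80.6 in siNT, and 126, 114 and 146 in siELMO1. Again siNT lay below both other arms, which overlap. HERC5 rose 76.8-fold in Mock (log2 6.26, SE 0.18), 45.4-fold in siNT (5.50, SE 0.18) and 104-fold in siELMO1 (6.70, SE 0.19), which placed it 110th, 98th and 85th of the 15167 genes by fold change.

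HERC6 measured 16.0, 15.4 and 16.9 CPM in Mock at 0 h, 19.3, 19.7 and 19.2 in siNT and 15.0, 14.0 and 15.7 in siELMO1. At 24 h it measured 187, 197 and 194 CPM in Mock, 129, 118 and 136 in siNT, and 162, 160 and 168 in siELMO1. No 2 arms overlap at 24 h, and siELMO1 lies between Mock and siNT. HERC6 rose 12.0-fold in Mock (log2 3.58, SE 0.06), 6.58-fold in siNT (2.72, SE 0.06) and 10.9-fold in siELMO1 (3.45, SE 0.06).

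USP18, which takes ISG15 off its targets, followed another course. It measured 21.8, 23.1 and 23.1 CPM in Mock at 0 h, but 8.62, 10.3 and 9.63 in siNT and 10.1, 10.4 and 10.8 in siELMO1. At 24 h it measured 194, 214 and 212 CPM in Mock, 127, 125 and 157 in siNT, and 138, 134 and 146 in siELMO1. Both siRNA arms were below Mock at both times and overlapped each other at both. The rise was 9.12-fold in Mock (log2 3.19, SE 0.08), 14.3-fold in siNT (3.84, SE 0.09) and 13.4-fold in siELMO1 (3.74, SE 0.09).

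**Figure D2:**
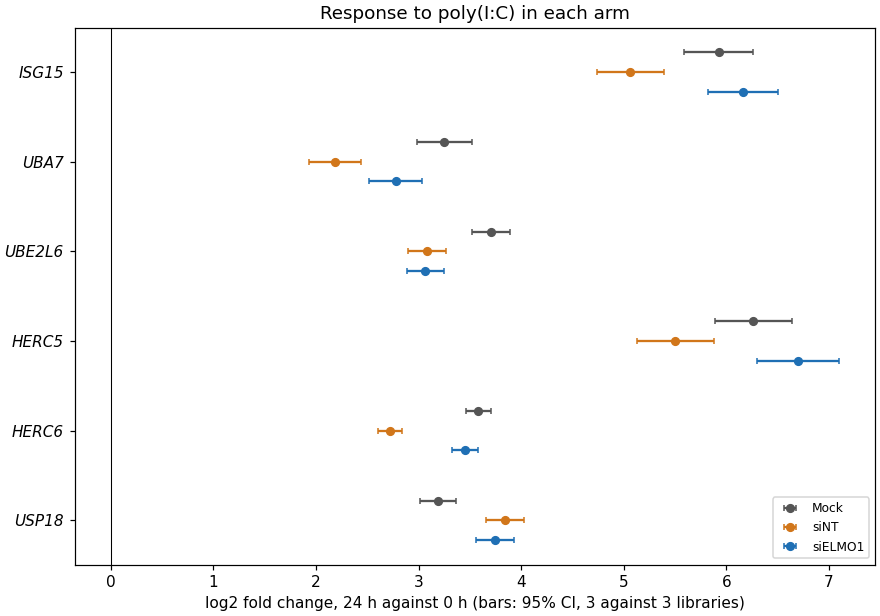
Log2 fold change of each gene at 24 h against 0 h of poly(I:C), by arm. Points are edgeR estimates from 3 against 3 libraries and bars are 95% confidence intervals. Mock is above siNT in 5 genes, from ISG15 (5.93 against 5.06) to HERC6 (3.58 against 2.72), and below it in USP18 (3.19 against 3.84).

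The responses of the arms were compared directly, as an interaction in the same model; each of these comparisons shares an arm with the others. The response in siNT was smaller than in Mock for 5 of the 6 genes and larger for USP18, whereas over all genes 16.0% were called smaller and 15.0% larger. The difference in log2 fold change was −1.07 for UBA7 (SE 0.17, edgeR adjusted p = 1.1e-04), −0.86 for ISG15 (SE 0.19, adjusted p = 0.00215), −0.86 for HERC6 (SE 0.08, adjusted p = 2.2e-07), −0.63 for UBE2L6 (SE 0.11, adjusted p = 4.3e-04) and −0.76 for HERC5 (SE 0.26, adjusted p = 0.0307). For USP18 it was 0.65 (SE 0.11, edgeR adjusted p = 2.6e-04). The HERC5 call was lost with limma-voom (adjusted p = 0.276), with unscaled library totals (adjusted p = 0.0557) and without any one of 7 libraries, and over the 20 alternatives its adjusted p ran from 3.5e-04 to 0.276.

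The response in siELMO1 was larger than in siNT for 4 genes, against 16.7% of all genes called larger. These were HERC5 (difference 1.20, SE 0.28, edgeR adjusted p = 0.00252), ISG15 (1.10, SE 0.20, adjusted p = 2.8e-04), HERC6 (0.73, SE 0.08, adjusted p = 9.3e-07) and UBA7 (0.59, SE 0.17, adjusted p = 0.0107). The HERC5 call was lost with limma-voom (adjusted p = 0.129, the highest of 20 alternatives, whose lowest was 1.8e-05). For UBE2L6 the difference was −0.02 (95% CI −0.26 to 0.22) and for USP18 −0.10 (95% CI −0.35 to 0.14), neither of them called.

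Against Mock, the response in siELMO1 was smaller for UBE2L6 (−0.64, SE 0.11, edgeR adjusted p = 4.1e-04) and UBA7 (−0.48, SE 0.17, adjusted p = 0.0435) and larger for USP18 (0.55, SE 0.11, adjusted p = 0.00145), against 14.6% of all genes called smaller and 13.8% larger. The UBA7 call was lost under 5 of the alternative settings and without any one of 9 libraries, among them the siELMO1 library that stood apart (−0.41, adjusted p = 0.0910), with a range of 0.0200 to 0.151 over 20 alternatives. ISG15 (0.24, 95% CI −0.17 to 0.65), HERC5 (0.44, 95% CI −0.12 to 0.99) and HERC6 (−0.13, 95% CI −0.29 to 0.03) were not called. Without the library that stood apart, siELMO1 at 0 h rested on replicates 2 and 3. ISG15 was then called larger (0.47, edgeR adjusted p = 0.0464, the lowest of 20 alternatives, whose highest was 0.759).

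Before stimulation, 3 of the 6 genes were called between siNT and Mock, against 27.6% of all genes called higher and 24.0% lower. Between siELMO1 and Mock 4 were called, against 27.9% higher and 22.4% lower. Both counts held genes of both directions, and neither lies far from the share of all genes. In siNT, UBA7 (log2 fold change 0.72, SE 0.12, edgeR adjusted p = 9.7e-05) and HERC6 (0.27, SE 0.06, adjusted p = 6.2e-04) were higher than in Mock, against 27.6% of all genes. USP18 was lower, at 42.1% of the Mock mean (−1.25, SE 0.08, adjusted p = 1.7e-09), against 24.0% of all genes called lower. ISG15 (−0.14, 95% CI −0.44 to 0.17), UBE2L6 (−0.07, 95% CI −0.24 to 0.11) and HERC5 (−0.37, 95% CI −0.83 to 0.08) were not called, although the HERC5 libraries of siNT all lay below those of Mock.

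In siELMO1 at 0 h, USP18 was likewise lower than in Mock, at 46.1% of its mean (−1.12, SE 0.08, edgeR adjusted p = 5.4e-09), and ISG15 was lower (−0.48, SE 0.15, adjusted p = 0.0122), against 22.4% of all genes. UBA7 (0.63, SE 0.13, adjusted p = 3.9e-04) and UBE2L6 (0.63, SE 0.08, adjusted p = 4.6e-06) were higher, against 27.9% of all genes. The ISG15 call was lost with limma-voom (adjusted p = 0.0569) and without the third siELMO1 library (adjusted p = 0.0765), with a range of 5.2e-04 to 0.0765 over 14 alternatives. HERC5 (−0.51, 95% CI −0.99 to −0.03, adjusted p = 0.0742) and HERC6 (−0.11, 95% CI −0.23 to 0.01) were not called. HERC6 was called lower with library totals (−0.19, edgeR adjusted p = 0.0138) and without the second Mock library (−0.17, adjusted p = 0.0456), within 0.0138 to 0.388 over 14 alternatives. HERC5 was called lower by DESeq2 (adjusted p = 0.0295), and over 14 alternatives its adjusted p ran from 0.0285 to 0.471.

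With siNT as the reference at 0 h, UBE2L6 was the gene higher in siELMO1 (0.70, SE 0.08, edgeR adjusted p = 8.3e-07) and HERC6 the gene lower (−0.38, SE 0.06, adjusted p = 1.6e-05), while 31.3% of all genes were called higher and 31.3% lower. ISG15 was not called (−0.34, 95% CI −0.65 to −0.03, edgeR adjusted p = 0.0558). With each library left out in turn, ISG15 was called lower in 2 fits. Without the siELMO1 library that stood apart, which left replicates 2 and 3, its difference was −0.57 (edgeR adjusted p = 0.00241). That was the lowest adjusted p of 14 alternatives, whose highest was 0.265. UBA7 (−0.09, 95% CI −0.35 to 0.17), HERC5 (−0.14, 95% CI −0.65 to 0.37) and USP18 (0.13, 95% CI −0.05 to 0.32) were not called. The low USP18 level before stimulation was thus seen in both arms that received an siRNA.

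**Figure D3:**
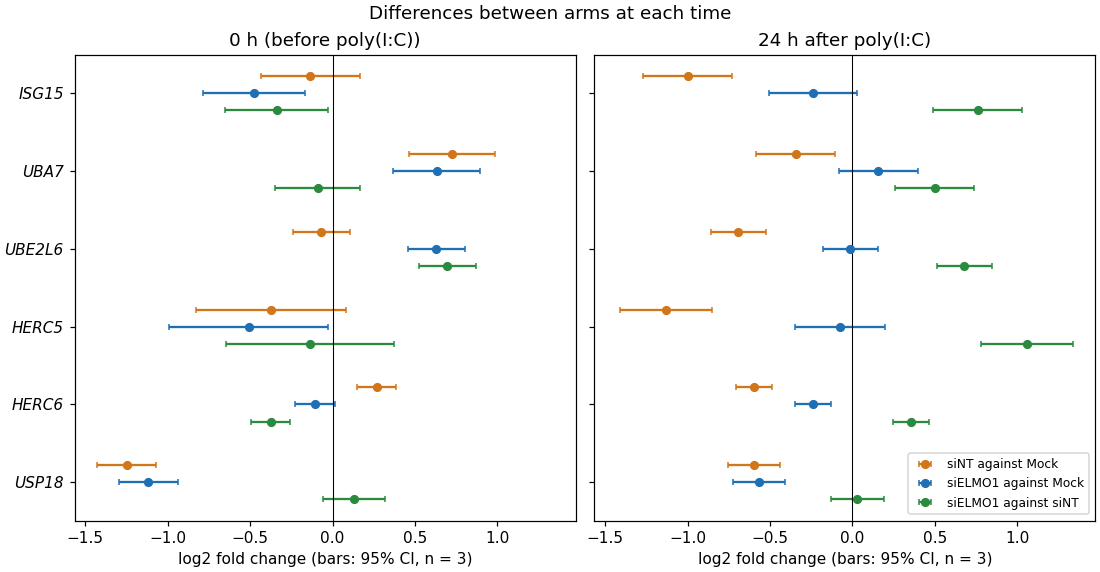
Log2 fold changes between arms at 0 h (left) and 24 h (right) for the 6 genes. Points are edgeR estimates and bars are 95% confidence intervals, from 3 libraries in each arm. At 24 h, siNT is below Mock in all 6 genes, and siELMO1 is above siNT in all but USP18, whose interval spans 0 (−0.13 to 0.19).

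After poly(I:C), all 6 genes were lower in siNT than in Mock, against 24.9% of all genes. HERC5 was at 45.6% of the Mock mean (log2 fold change −1.13, SE 0.13, edgeR adjusted p = 1.7e-06) and ISG15 at 50.03% (−0.999, SE 0.13, adjusted p = 5.0e-06). UBE2L6 was at 61.9% (−0.69, SE 0.08, adjusted p = 1.4e-06), USP18 at 66.1% (−0.60, SE 0.08, adjusted p = 4.5e-06) and HERC6 at 66.2% (−0.60, SE 0.05, adjusted p = 6.1e-08). UBA7, at 78.8%, gave the smallest difference (−0.34, SE 0.11, adjusted p = 0.0183). Its call was lost without the third Mock library (adjusted p = 0.0686) and without the first or the second siNT library (adjusted p = 0.105 and 0.0912, within 2.0e-04 to 0.105 over 15 alternatives), and without the third siNT library its difference was −0.53. The calls of the other genes were kept with each library left out. In all 6 genes the third siNT library was the highest of its arm at 24 h. The chi-square per degree of freedom between its counts and those of the other replicates was 22.7 and 25.4, against 9.41 between those replicates. These are bulk samples, in which fewer responding cells and less RNA per cell cannot be told apart, and the study describes more cell death in siNT cells after poly(I:C). Summed levels in siNT and Mock at 24 h were 2072 to 2321 against 1613 to 2042 CPM for the endothelial markers, of which 5 of 11 tested were higher and 4 lower. For the epithelial markers they were 1012 to 1058 against 844 to 863 CPM, with 2 of 4 higher and 1 lower. Over all genes 25.2% were called higher and 24.9% lower. Mitochondrially encoded genes took 2.06% to 2.42% of the counts in siNT and 1.74% to 1.80% in Mock. The part of these in the differences was not tested.

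In siELMO1 at 24 h, 5 of the 6 genes were higher than in siNT, against 26.0% of all genes. HERC5 was 2.08-fold higher (log2 1.06, SE 0.13, edgeR adjusted p = 3.3e-06), ISG15 1.69-fold (0.76, SE 0.13, adjusted p = 8.1e-05), UBE2L6 1.60-fold (0.68, SE 0.08, adjusted p = 1.6e-06), UBA7 1.42-fold (0.50, SE 0.11, adjusted p = 0.00131) and HERC6 1.28-fold (0.36, SE 0.05, adjusted p = 1.9e-05). USP18 was not called (0.03, 95% CI −0.13 to 0.19, adjusted p = 0.758). The summed level of the 12 endothelial markers was also higher in siELMO1, at 2834 to 3436 CPM against 2072 to 2321 in siNT, with 8 of 11 tested called higher, and that of the epithelial markers was 1100 to 1316 against 1012 to 1058 CPM. Their part in these differences was not tested.

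Against Mock at 24 h, siELMO1 was lower in USP18, at 67.6% of the Mock mean (−0.57, SE 0.08, edgeR adjusted p = 9.3e-06), and in HERC6, at 84.7% (−0.24, SE 0.05, adjusted p = 0.00106), against 22.0% of all genes. UBE2L6 (−0.01, 95% CI −0.18 to 0.15) and HERC5 (−0.07, 95% CI −0.35 to 0.20) were not called. Nor were ISG15 (−0.24, 95% CI −0.51 to 0.03) and UBA7 (0.16, 95% CI −0.08 to 0.40), though in both genes the libraries of these arms did not overlap. In a fit of the compared libraries alone, ISG15 (edgeR adjusted p = 0.0174) and UBA7 (adjusted p = 0.0467) were called too, each at the lowest adjusted p of its 14 alternatives, whose highest were 0.354 and 0.510.

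Levels of different genes were compared as TPM, which divides by transcript length. In Mock at 0 h the order was UBE2L6 (82.4 ± 3.28 TPM, SD, n = 3), ISG15 (46.6 ± 2.74), USP18 (30.1 ± 1.04), HERC6 (10.7 ± 0.436), UBA7 (9.08 ± 1.54) and HERC5 (1.23 ± 0.108), where the ranges of HERC6 and UBA7 overlap. In Mock at 24 h it was ISG15 (2688 ± 146 TPM), UBE2L6 (1021 ± 30.3), USP18 (251 ± 10.5), HERC6 (118 ± 1.78), HERC5 (87.1 ± 8.69) and UBA7 (76.9 ± 5.00), where HERC5 and UBA7 overlap. The modifier thus passed its E2 in every arm: the ratio of ISG15 to UBE2L6 in TPM was 0.566 ± 0.0478 at 0 h and 2.63 ± 0.0654 at 24 h in Mock.

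**Figure D4:**
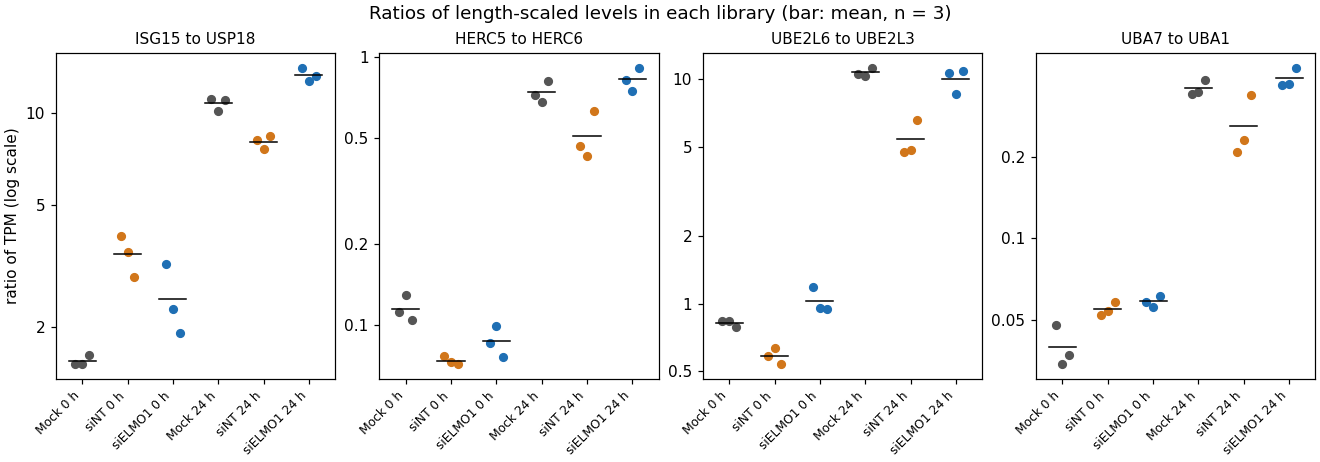
Ratios of TPM in each library (log axis), with bars for the mean of 3. From left to right these are ISG15 to USP18, HERC5 to HERC6, UBE2L6 to its ubiquitin relative UBE2L3 and UBA7 to the ubiquitin E1 UBA1. At 24 h the ratio of ISG15 to USP18 is highest in siELMO1 (12.7 to 14.0) and lowest in siNT (7.60 to 8.40).

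The ratio of the modifier to its protease ordered the arms in different ways before and after poly(I:C). ISG15 to USP18 was 1.55 ± 0.0598 in Mock, 3.45 ± 0.526 in siNT and 2.46 ± 0.662 in siELMO1 at 0 h, where the siRNA arms overlap and Mock lies below both. At 24 h it was 10.7 ± 0.544, 8.05 ± 0.408 and 13.3 ± 0.656, with no overlap between arms. With 3 libraries an arm, an exact permutation test cannot go below p = 0.10, and none was run on these ratios. HERC5 drew nearer to HERC6, with a ratio of 0.115 ± 0.0128 at 0 h and 0.740 ± 0.0705 at 24 h in Mock.

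UBE2L6 and UBA7 also rose against their counterparts of the ubiquitin cascade. UBE2L6 to UBE2L3 was 0.820 ± 0.0310 in Mock at 0 h and 10.7 ± 0.474 at 24 h, with 5.40 ± 1.06 in siNT and 10.1 ± 1.29 in siELMO1 at 24 h. UBA7 to UBA1 was 0.0398 ± 0.00722 in Mock at 0 h and 0.357 ± 0.0234 at 24 h. Of 8 genes for other E1 enzymes and UBE2L3, 1 was called higher with poly(I:C) in Mock, UBA6 (log2 0.46, SE 0.06, edgeR adjusted p = 5.3e-06), an E1 of ubiquitin and FAT10, and 3 lower, against 30.7% and 29.6% of all genes. NAE1, of the E1 for NEDD8, was among the lower (−0.59, SE 0.05, adjusted p = 4.2e-09).

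Genes around the pathway were counted from lists by role. Of 5 tested genes for other reported ISG15 ligases and proteases that also cleave ISG15, 1 was higher with poly(I:C) in Mock, against 30.7% of all genes, and 3 were lower, against 29.6%, and the median log2 fold change was −0.14 against 0.01 for all genes tested. The gene that rose was TRIM25, a ubiquitin ligase of the RIG-I pathway (1.25, SE 0.04, edgeR adjusted p = 2.9e-14). Of the 4 other HERC ligases none rose in Mock and 3 fell, against 30.7% and 29.6% of all genes, with HERC3, the next relative, falling most (−1.06, SE 0.09, adjusted p = 1.1e-08). Of 12 tested genes for ubiquitin and its relatives 3 rose in Mock and 1 fell, a share of rises near that of all genes. UBD, which encodes FAT10, was under the filter, with at most 32 counts in a library.

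Upstream of the pathway stands interferon signalling itself. Of the 7 genes for the type I interferon receptor, its kinases and ISGF3, 6 rose in Mock, 5 in siNT and 7 in siELMO1, against 30.7%, 28.6% and 28.0% of all genes. STAT2 rose by 3.67 (SE 0.09), 2.96 (SE 0.08) and 2.99 (SE 0.08) on the log2 scale in Mock, siNT and siELMO1. IRF9 rose by 3.29 (SE 0.17), 2.93 (SE 0.17) and 1.88 (SE 0.17), and at 24 h it was lower in siELMO1 than in siNT (−0.97, SE 0.16, edgeR adjusted p = 6.1e-05). Between siELMO1 and siNT the list moved both ways, with 2 of the 7 higher and 3 lower at 0 h, against 31.3% each of all genes, and 2 higher and 2 lower at 24 h, against 26.0% and 26.5%, so the shares lie near the background. The receptor chain IFNAR1 was lower in siELMO1 at both times (−0.93, SE 0.06, edgeR adjusted p = 5.7e-10, and −0.41, SE 0.06, adjusted p = 2.9e-05). STAT2 was higher at both (0.47, SE 0.08, adjusted p = 4.3e-05, and 0.51, SE 0.08, adjusted p = 2.5e-05), as was the kinase JAK1 (0.11, SE 0.04, adjusted p = 0.0377, and 0.31, SE 0.04, adjusted p = 1.8e-05). The receptor chain IFNAR2 and the kinase TYK2 were the others called lower at 0 h.

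Among 12 genes for reported substrates of ISG15, 10 rose in Mock, 9 in siNT and 10 in siELMO1, against the same shares of all genes as above. IFIT1, an RNA-binding antiviral protein, rose by 7.22 (SE 0.15) in Mock on the log2 scale. The RNA sensors IFIH1 and RIGI rose by 5.40 (SE 0.12) and 4.76 (SE 0.13). At 24 h, 7 of the 12 were lower in siNT than in Mock and 3 higher, against 24.9% and 25.2% of all genes. Between siELMO1 and siNT, 7 were higher and 1 lower, against 26.0% and 26.5%. MX1, a dynamin-like antiviral GTPase, was below Mock in both siRNA arms before stimulation, by −0.89 (SE 0.24, edgeR adjusted p = 0.00470) in siNT and −0.79 (SE 0.24, adjusted p = 0.0115) in siELMO1. ITGAL and ITGB2, the integrin chains that bind secreted ISG15 on lymphocytes, were under the filter, with at most 8 and 46 counts in a library.

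The pattern of each gene over the 6 condition means was compared with 12875 other genes, by the root mean square (RMS) difference of log2 CPM after centring. ISG15 and HERC5 were close to each other (0.23) and each closest to the pseudogene GBP1P1 (0.21 and 0.17). STAT2 was closest to UBE2L6 (0.11), TLR3 to UBA7 (0.14) and PARP14 to HERC6 (0.07). The nearest to USP18 was MX1 (0.24), followed by SP110 (0.31). Within 0.5 lay 17 genes for USP18, 20 for HERC5, 24 for ISG15, 80 for UBE2L6, 94 for HERC6 and 110 for UBA7. Between members, the distance of ISG15 was 1.55 from UBA7 and 1.14 from USP18.

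USP18 needs a caveat on counting, since copies of its sequence lie elsewhere on chromosome 22. Of its 4137 distinct stretches of 100 bases in annotated transcripts, 15.5% occurred in another gene, against 0 for ISG15, UBE2L6, HERC5 and HERC6 and 0.195% for UBA7. Counts of the pseudogene USP41 differed widely between replicates: they were 0, 662 and 617 in Mock at 24 h, when the overlapping ENSG00000290950 had 533, 0 and 0. The 3 copies together took 8.74% to 18.8% of the sum with USP18. When they were added to USP18, all 12 of its calls and non-calls were as before.

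On average the canonical transcript of each gene made up most of its transcript counts in every condition. The canonical transcript of ISG15 took 84.5% ± 8.51 (SD, n = 3) in Mock at 0 h and 99.8% ± 0.148 at 24 h, and that of HERC5 took 97.6% ± 4.24 and 99.3% ± 0.552. For USP18 the canonical share was 79.1% ± 4.69 and 86.3% ± 1.34. The share of the canonical HERC6 transcript varied most, from 41.2% to 98.4% among the siELMO1 libraries at 0 h. The 41.2% was that of the library that stood apart. StringTie divides reads among isoforms by a model, so these shares are estimates.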

How the data were processed

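The authors sequenced paired ends from a stranded mRNA kit, aligned them to GRCh38 with STAR and deposited estimated counts (expected counts) per gene and transcript, made with StringTie and its count script (Gencode v44, tool versions not given in the sources used here). The values are whole numbers and not normalized. All 18 libraries entered 1 edgeR model (4.0.16, R 4.3.3) with 6 condition means and TMM factors, which ran from 0.958 to 1.06. Genes under 100 counts in total or never reaching 1 CPM were left out, and the remaining 15167 were tested in 12 comparisons, with Benjamini-Hochberg adjustment over all of them and calls at an adjusted p under 0.05. The test is two-sided. The biological coefficient of variation was 12.2%. TPM was computed from the transcript counts and annotated lengths. The script was tested on simulated data. Where a symbol had several identifiers, the one with the most counts was used.

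The 6 genes and the lists were chosen with earlier results of these data known. Genes were named by a set rule: the 6 genes, ELMO1, up to 4 genes a list with the largest mean absolute response, the 5 genes closest in pattern, and copies and overlapping genes. UBA1 and UBE2L3 stand as counterparts of UBA7 and UBE2L6, and IFNAR1, IFNAR2, TYK2 and JAK1 were named after their values were seen. Some genes that the rule gives are not reported here. The 95% confidence intervals (CI) of fold changes come from the model and include the spread between replicates, whereas the values of 3 counts cover counting error at most. Alternatives were DESeq2 1.42.0, limma-voom (limma 3.58.1), other scalings and filters, a replicate block, only the libraries compared and each library left out, and after seeing the data USP18 summed with its copies.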

Additional observations from a re-analysis of the deposited data

Results flagged for a closer look

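These results stood out because the response to poly(I:C) differed between arms, by the interaction in the edgeR model. Values are differences in log2 fold change. For siNT minus Mock they were −0.86 for ISG15, −1.07 for UBA7, −0.63 for UBE2L6, −0.76 for HERC5 and −0.86 for HERC6, and 0.65 for USP18. For siELMO1 minus siNT they were 1.10 for ISG15, 0.59 for UBA7, 1.20 for HERC5 and 0.73 for HERC6. For siELMO1 minus Mock they were −0.48 for UBA7, −0.64 for UBE2L6 and 0.55 for USP18. USP18 was the gene of the 6 whose response was larger in both siRNA arms than in Mock, and its level before poly(I:C) was lower in both. At 24 h USP18 was still below Mock, at 66.1% of its mean in siNT and 67.6% in siELMO1. UBE2L6 in siELMO1 was above Mock at 0 h (log2 fold change 0.63) and not called at 24 h (−0.01).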

How the results depend on the processing

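Of the 72 differences given for the 6 genes, 53 were called, and no called difference changed direction under any alternative run. Fitting only the libraries compared raised the number of genes called between siELMO1 and Mock at 24 h from 2 to 4; no other number of called genes moved by over 1.5 times. The sign turned only for differences near 0 that were not called. USP18, siELMO1 against siNT at 24 h, was −0.0150 with library totals and −0.0267 to 0.145 with each library left out. UBE2L6 and HERC5, siELMO1 against Mock at 24 h, ran from −0.0357 to 0.0058 and from −0.174 to 0.0080 with each library left out. For the response in siELMO1 minus that in siNT, UBE2L6 was 0.0182 without a filter and −0.0844 to 0.125 with each library left out, and USP18 was −0.162 to 0.0132. Of 540 values with a library left out, 504 kept their side of the threshold and direction, 20 lost a call, 4 gained one and 12 turned sign. The cause of these changes was not tested. Library totals in place of TMM factors moved the median of all genes in the Mock response from 0.01 to −0.11 on the log2 scale. The replicate numbers were not taken to pair the libraries: over all 15167 genes, in none of the 15 pairs of conditions were all 3 same-numbered libraries correlated over 0.1 (r from −0.110 to 0.137). That depends on the genes used, which were tried at 5 minimum levels: siELMO1 at 0 h with siNT at 24 h, which no comparison sets against each other, passed over the 11033 genes with a mean of at least 5 CPM and again over the 9644 genes at 10 CPM, where Mock and siNT at 24 h passed too, and over the 4628 genes at 50 CPM, siNT at 24 h passed with both Mock and siELMO1 at 24 h. With the replicate block, HERC5 in siELMO1 against Mock at 0 h was called (−0.51, edgeR adjusted p = 0.0285), and no other call of the 72 changed.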
